A study of Mus musculus with 6 samples.

Results

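The Ikaros family of zinc finger transcription factors was examined in splenic B cells of mice that carry p80HT, a lymphoma-associated truncated form of NF-κB2. Its 5 genes were taken by symbol (Ikzf1, Ikzf2, Ikzf3, Ikzf4 and Ikzf5), and all 5 were measured among 19938 genes. The tested mice were 3 p80HT transgenic animals positive for a monoclonal serum immunoglobulin (M-protein), and they were set against 3 wild-type (WT) littermates. All 6 mice were 1 year old and of the C57BL/6J x SJL/J background. The transgene is a human p80HT coding sequence under the H-2Kb promoter and an immunoglobulin μ enhancer, and it is active in T as well as B lymphocytes. Cells were selected from spleen on magnetic beads through B220, a surface antigen of B cells, and RNA of each mouse was run on 1 Mouse Gene 1.0 ST array. Values are log2 signals as deposited. A gene is said to have risen or fallen where it passed the threshold of the study, a change of 1.5-fold or more and a p under 0.01 before adjustment, here in limma, which uses the spread of all genes to steady that of each one.

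Ikaros proteins bind DNA through a cluster of zinc fingers near the amino terminus and pair with each other through a further cluster at the carboxyl terminus. They act largely by recruiting chromatin remodelling and histone deacetylase complexes. Ikaros (Ikzf1) is needed for lymphocytes to develop normally, and Aiolos (Ikzf3) is abundant in mature B cells. Helios (Ikzf2) and Eos (Ikzf4) are best known in T cells, and in regulatory T cells in particular. Pegasus (Ikzf5) is the most distant member. In human multiple myeloma Ikaros and Aiolos are the proteins that lenalidomide and related drugs send for degradation through the ligase receptor cereblon.

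The array of p80HT replicate 3 stood apart from the rest and is named wherever it bears on a value. Across genes, its correlation with the other 5 arrays was 0.914 to 0.925, while those correlated with each other at 0.981 or more. It alone held the gland transcripts Pip and Amy1, at 13.70 and 13.50, which were at 5.15 to 5.95 on the other arrays. The B cell markers Ms4a1 (11.77 to 13.03 in p80HT and 12.99 to 13.12 in WT) and Cd79a (10.81 to 12.15 in p80HT and 12.10 to 12.47 in WT) were bright on every array. Others were far lower on p80HT replicate 3, such as Cr2 at 9.15 (12.68 to 12.98 in WT) and Ebf1 at 10.06 (12.73 to 12.83 in WT). Of 11 B cell genes 6 were lower in every p80HT mouse than in any WT mouse, against 11.9% of all genes. None was higher in that way. As a guide to background, 1027 olfactory receptor genes had a median of 5.50 to 5.87 on the 6 arrays and a 95th percentile of 7.07 to 7.68. In all genes, 1.22% rose and 0.968% fell.

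Helios differed most between the groups. Ikzf2 was at 8.94, 9.11 and 9.80 in the 3 p80HT mice, against 7.62, 7.82 and 7.97 in WT littermates. Every p80HT mouse was above every WT mouse, and the gap between the groups was wider than the spread within either. The means were 9.28 ± 0.45 in p80HT and 7.81 ± 0.17 in WT (SD, n = 3 each), a log2 fold change of 1.48 (SE 0.24), or 2.78-fold. Only 0.416% of all genes had a log2 fold change as high. The family was chosen by this very difference, since Ikzf2 is on the study's list of the genes with the largest changes, and each gene was read at the probeset selected on its mean over all 6 arrays. The Ikzf2 values are therefore a description, and no p is given for them. The highest of the 3 values came from p80HT replicate 3, and without that mouse the log2 fold change was 1.22. The WT signals lay between 7.62 and 7.97, close to the upper end of the olfactory receptor genes. In RNA of a bulk sample, more cells of a type and more RNA per cell cannot be told apart.

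**Figure D1:**
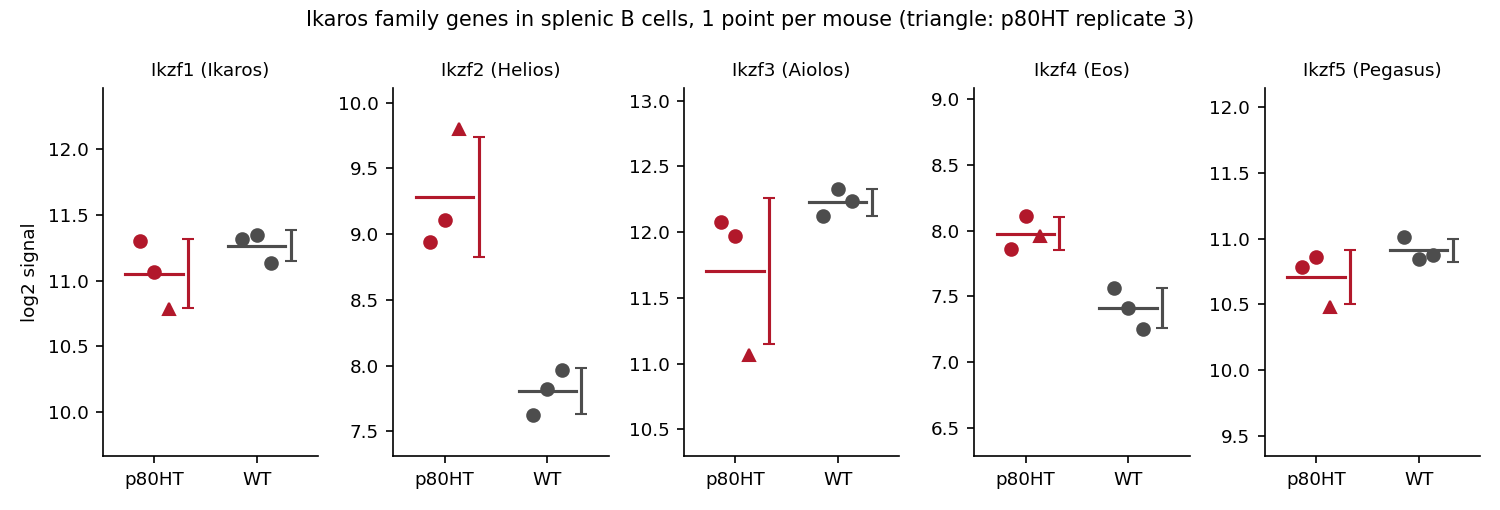
Log2 signal (vertical axis, each panel spanning the same range of log2 units) of the 5 Ikaros family genes, 1 point per mouse, p80HT in red and WT in grey, with group mean (line) and SD (bar, n = 3). Ikzf2 and Ikzf4 have all p80HT points above all WT points, and for Ikzf3 the triangle, p80HT replicate 3 at 11.07, lies far below the other 5.

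Eos was higher as well, by less. Ikzf4 was at 7.86, 8.11 and 7.96 in p80HT mice and at 7.56, 7.41 and 7.26 in WT mice. These groups did not overlap either, and here p80HT replicate 3 was the middle one of its group. The means were 7.98 ± 0.13 in p80HT and 7.41 ± 0.15 in WT (SD, n = 3 each). The log2 fold change of 0.57 (SE 0.14, limma adjusted p = 0.269) corresponds to 1.48-fold, just short of the 1.5-fold that the threshold asks for, with an unadjusted p of 0.0044 in limma that would have met it. It was 0.58 without p80HT replicate 3. Without p80HT replicate 1 (0.63) or WT replicate 1 (0.64) Ikzf4 passed the threshold. In WT its signal was below the 95th percentile of the olfactory receptor genes on 2 arrays and above it on 1.

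The members that B cells are known for were not higher. Ikzf3 was at 12.08, 11.97 and 11.07 in p80HT mice, against 12.12, 12.32 and 12.24 in WT mice. All 3 p80HT values lay below the lowest WT value, though the nearest by only a little. The log2 fold change of -0.52 (SE 0.27) did not pass (limma adjusted p = 0.558), and most of it came from p80HT replicate 3: without that mouse it was -0.20. Ikzf1 was at 11.31, 11.07 and 10.78 in p80HT mice and at 11.32, 11.35 and 11.13 in WT mice. Its groups overlapped, and the log2 fold change was -0.21 (SE 0.17, limma adjusted p = 0.717), or -0.08 without p80HT replicate 3. The 95% interval of the log2 fold change was -0.60 to 0.18 for Ikzf1 and -1.15 to 0.11 for Ikzf3.

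Pegasus was read by 2 probesets, the single gene of the family with more than one. The brighter gave 10.79, 10.86 and 10.48 in p80HT and 11.01, 10.84 and 10.88 in WT, with a log2 fold change of -0.20 (SE 0.15, limma adjusted p = 0.686). The dimmer gave 9.17, 8.77 and 9.51 in p80HT and 9.26, 9.54 and 9.56 in WT, with a log2 fold change of -0.30. The groups overlapped at both probesets. On p80HT replicate 3 the brighter probeset was at its lowest of the 6 arrays, while the dimmer one was at its highest within the p80HT group.

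Of the 5 members 1 thus rose, none fell and 4 did not pass, against the 1.22% of all genes that rose. That 1 is the member known beforehand, so nothing is read from the share. In limma none had an adjusted p under 0.05, which 0.0552% of all genes did, and 2 had an unadjusted p under 0.05, as did 10.2% of all genes. Without p80HT replicate 3, the adjusted p was under 0.05 for 2 members, Ikzf4 at 0.0360 and the member known beforehand, and for 4.67% of all genes. Groups that did not overlap were found for 2 members higher in p80HT and 1 lower, where 8.86% of all genes were higher without overlap and 11.9% lower. The median log2 fold change over the family was -0.20, against -0.02 over all genes.

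**Figure D2:**
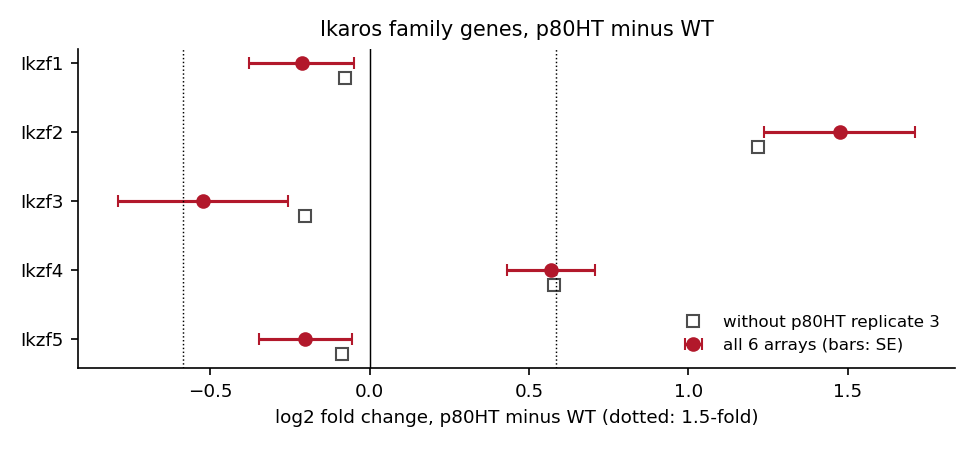
Log2 fold change, p80HT minus WT (horizontal axis), of the 5 genes with all 6 arrays (red, bars are the SE from limma) and without p80HT replicate 3 (open squares), with dotted lines at 1.5-fold. Ikzf2 lies at 1.48 and 1.22, Ikzf4 just inside the dotted line at 0.57 and 0.58, and Ikzf1, Ikzf3 and Ikzf5 are closer to 0 without that array.

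The difference between Helios and the B cell members was taken mouse by mouse. Each SE here comes from the spread of such differences within the groups, not from limma as for single genes. The log2 fold change of Ikzf2 exceeded that of Ikzf1 by 1.69 (SE 0.44) and that of Ikzf3 by 2.00 (SE 0.59). Without p80HT replicate 3 these differences were 1.30 and 1.42. Ikzf4 exceeded Ikzf1 by 0.78 (SE 0.20) and Ikzf3 by 1.09 (SE 0.35), and it fell short of Ikzf2 by 0.91 (SE 0.33). The pairs were proposed with the values known, and no p is given for them.

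Genes of regulatory T cells were higher in p80HT as well. Of 12 measured, 8 rose and none fell (4 did not pass), where 1.22% of all genes rose and 0.968% fell. The median log2 fold change of the 12 was 1.21, against -0.02 over all genes. In 11 of the 12 all p80HT mice were above all WT mice, against 8.86% of all genes. In limma none of them had an adjusted p under 0.05 over all genes, and 11 had an unadjusted p under 0.05, against 10.2% of all genes. Without p80HT replicate 3, 10 of the 12 had an adjusted p under 0.05, against 4.67% of all genes. With the methods' analysis of variance, in which each gene's own spread is used, 3 of the 12 passed the threshold. In that run 119 of all 19938 genes rose and 77 fell. Foxp3, the transcription factor that defines these cells, was at 9.05, 8.90 and 9.86 in p80HT mice and at 8.10, 8.05 and 8.15 in WT mice, a log2 fold change of 1.17 (limma adjusted p = 0.206). Ctla4, an inhibitory receptor for CD80 and CD86, was at 10.18, 10.01 and 9.53 in p80HT mice, against 8.22, 8.84 and 8.87 in WT mice. For Ctla4, unlike Ikzf2, p80HT replicate 3 was the lowest of its group, and the log2 fold change of 1.27 became 1.46 without it. The other risers were the inhibitory receptor gene Tigit (1.54), the integrin chain Itgae (1.35), the TNF receptors Tnfrsf4 (1.26) and Tnfrsf18 (0.77), the semaphorin co-receptor Nrp1 (1.25) and Izumo1r (0.93), a folate receptor relative on T cells. Nrp1 lost its limma call without any 1 of the WT mice, and the other 7 kept theirs without any 1 array. Of these 7 only Tnfrsf4, Tnfrsf18 and Izumo1r passed with the analysis of variance as well. Icos (1.56), Il2ra (1.03), Lrrc32 (0.45) and Gpr83 (0.01) did not pass. Gpr83 was at 6.67 to 7.32 in p80HT and 6.95 to 7.18 in WT, within the range of the olfactory receptor genes. With p80HT replicate 3 left out, 10 of the 12 rose and the median was 0.85, where 2.01% of all genes rose and 1.45% fell. Tnfrsf4 and Tnfrsf18 are also among the genes the study named from these arrays, so they are not independent evidence.

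**Figure D3:**
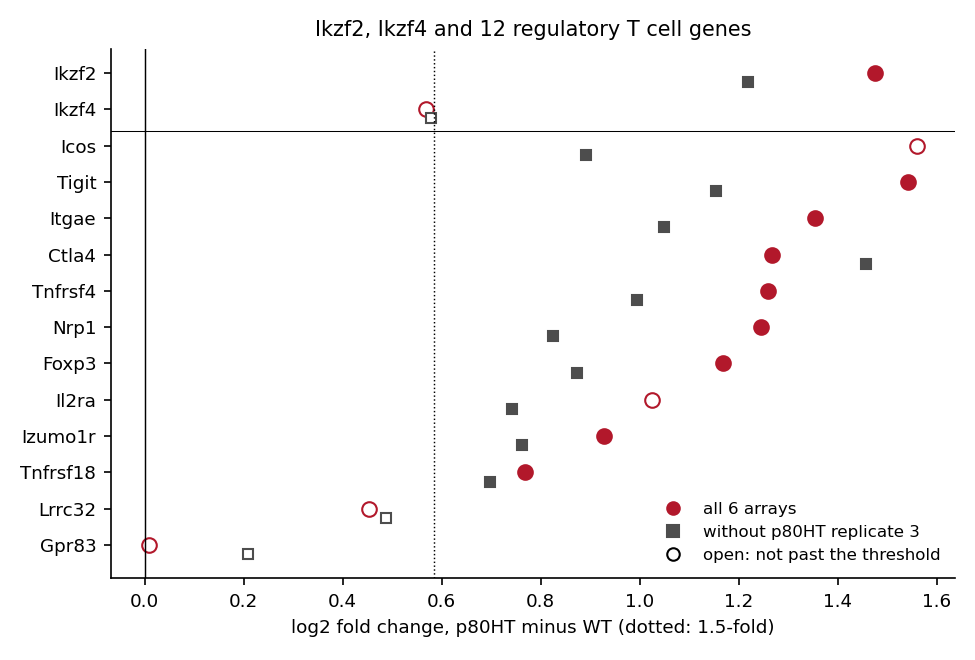
Log2 fold change, p80HT minus WT (horizontal axis), of Ikzf2, Ikzf4 and 12 regulatory T cell genes with all 6 arrays (red circles) and without p80HT replicate 3 (grey squares), filled where the gene passed the threshold. Of the 12 genes 8 are filled with all arrays and 10 without that array, and Gpr83 lies near 0 at 0.01.

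Some of the T cell genes rose in p80HT. Among 18 genes of this kind 6 rose and 12 did not pass, with none that fell, where 1.22% of all genes rose and 0.968% fell. For 15 the p80HT mice were all above the WT mice, against 8.86% of all genes, while Cd2 (0.06) and Lef1 (0.03) had groups that overlapped. Cd2 was at 11.85 to 12.54 in p80HT and 12.14 to 12.30 in WT, as bright in WT as the B cell marker Cd79a. The count past the threshold was 3 without WT replicate 1, 11 without p80HT replicate 2, 13 without p80HT replicate 3, and 3 with the methods' analysis of variance. Of all 19938 genes, 158, 314, 401 and 119 rose in these runs, in the same order. The T cell receptor chains Cd3e (1.74) and Cd3g (2.03), the co-receptor gene Cd5 (1.10), the CD80 receptor gene Cd28 (0.93) and the transcription factors Gata3 (1.08) and Bcl11b (0.94) were those that passed. Cd3e lost its call without WT replicate 1, Cd3g without any 1 of the WT mice and Cd5 without WT replicate 1 or 3. The study named Cd28, Gata3 and Bcl11b from these arrays. Averaged over the 18 genes, log2 signal was 8.98 to 10.23 in p80HT and 8.28 to 8.56 in WT. Trat1, an adaptor of the T cell receptor, was at 5.32 to 6.01 in p80HT and 5.10 to 5.82 in WT, within the range of the olfactory receptor genes. The part that T cells have in the Ikzf2 and Ikzf4 signals was not tested.

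Array by array, the members differed in how they went with these lists. Relative to the WT mean, Ikzf2 was 1.13, 1.30 and 1.99 higher on the arrays of p80HT replicates 1, 2 and 3. The mean of the regulatory T cell genes was 0.85, 0.84 and 1.45 higher on these arrays, and that of the T cell genes 0.72, 0.56 and 1.81 higher. All of them were highest on p80HT replicate 3. So were the means of the macrophage genes (0.59, 0.48 and 1.71 higher on these arrays) and of the NK cell genes (0.39, 0.12 and 1.14). Ikzf4 was 0.45, 0.70 and 0.55 higher on the same arrays and so had no excess on p80HT replicate 3. Among markers of other cells, 3 of 11 macrophage genes rose (Mpeg1, Adgre1 and Vsig4, at 1.41, 0.72 and 0.62) and none fell, where 1.22% of all genes rose. Vsig4, which the study named from these arrays, was at 6.25 to 6.36 in p80HT and 5.67 to 5.76 in WT. Those values were within the range of the olfactory receptor genes. Adgre1 kept its call only without p80HT replicate 3 and lost it without any 1 of the other arrays. The mean log2 signal of the 11 macrophage genes was 9.37 to 10.60 in p80HT and 8.82 to 9.03 in WT. For 9 NK cell genes these means were 8.32 to 9.33 in p80HT and 8.11 to 8.34 in WT, with Nkg7 (1.31), a granule protein of cytotoxic lymphocytes, the 1 that rose. The call of Nkg7 was lost without p80HT replicate 1, WT replicate 1 or WT replicate 2. Of 10 plasma cell genes 1 rose, Prdm1, and the means were 10.51 to 10.81 in p80HT and 10.42 to 10.68 in WT.

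B cell genes went with Ikzf3 on the array that stood apart. The mean over 11 of them was 12.30, 12.19 and 10.83 on the arrays of p80HT replicates 1, 2 and 3, against 12.44, 12.61 and 12.55 in WT. Ikzf3 was 0.15, 0.26 and 1.16 below its WT mean on the same p80HT arrays, so its low value fell where B cell transcripts were low. None of the 11 genes passed the threshold in limma, nor did most genes (1.22% of all genes rose and 0.968% fell). Of the 11, 2 had an unadjusted limma p under 0.05, against 10.2% of all genes. In 6 of them all p80HT mice were below all WT mice, against 11.9% of all genes. The smallest p values were those of the complement receptor gene Cr2 (-1.99) and the low-affinity IgE receptor gene Fcer2a (-1.80), and both passed without p80HT replicate 3, Cr2 at -1.13. The part of B cell content in the Ikzf3 signal was not tested.

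**Figure D4:**
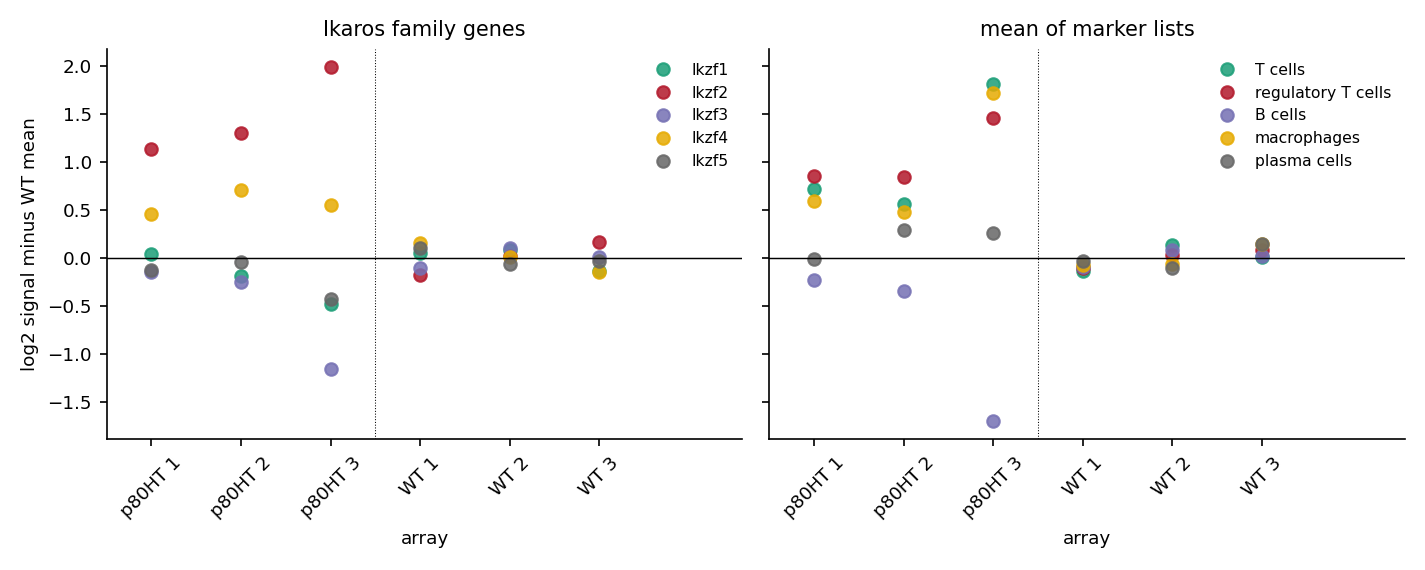
Log2 signal minus the WT mean (vertical axis) on each of the 6 arrays, for the 5 Ikaros family genes (left) and for the mean of 5 marker lists (right). On p80HT replicate 3, Ikzf2 is at 1.99 and Ikzf3 at -1.16, while the T cell list is at 1.81 and the B cell list at -1.71.

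None of the partners through which Ikaros proteins act on chromatin passed the threshold, nor did most genes (1.22% of all genes rose and 0.968% fell). Of 18 measured subunits of the NuRD, Sin3, CtBP and SWI/SNF complexes none rose and none fell, with a median log2 fold change of -0.13, and 1 of them, Chd4, had an unadjusted limma p under 0.05, as did 10.2% of all genes. None passed with the methods' analysis of variance. Chd4, the remodelling ATPase of NuRD, was at 10.54, 10.52 and 10.57 in p80HT mice, against 10.75, 10.91 and 10.86 in WT mice. The groups did not overlap, yet the log2 fold change of -0.30 did not pass (limma adjusted p = 0.457). Sin3a, a scaffold for histone deacetylases with the next smallest p, had a log2 fold change of -0.37. With Sin3a, Sin3b (-0.28) and Gatad2b (-0.26), Chd4 made 4 of the 18 lower without overlap, where 11.9% of all genes were. Ctbp2 (0.61) was the 1 higher without overlap, where 8.86% of all genes were. The 5 measured genes of the cereblon ligase did not pass either by limma or by that analysis, and none had an unadjusted limma p under 0.05. Crbn, which encodes cereblon, was at 11.16, 11.19 and 11.18 in p80HT mice and at 11.10, 11.35 and 11.05 in WT mice (log2 fold change 0.01), and the 2 with the smallest p were Ddb1 (0.13) and Cul4a (-0.11).

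Among 19 other transcription factors of the B lineage 1 rose and 1 fell, where 1.22% of all genes rose and 0.968% fell. In every p80HT mouse 11 of the 19 were lower than in any WT mouse, against 11.9% of all genes. The median log2 fold change of the 19 was -0.63, against -0.02 over all genes, and it was -0.36 without p80HT replicate 3. Prdm1, the driver of plasma cell differentiation, was at 9.48, 9.22 and 9.75 in p80HT mice, against 8.70, 8.72 and 8.62 in WT mice (log2 fold change 0.80, limma adjusted p = 0.181). Bcl6, the repressor of germinal centre B cells, was at 10.30, 9.90 and 10.03 in p80HT mice, against 10.64, 10.75 and 10.80 in WT mice (log2 fold change -0.65, limma adjusted p = 0.221). The call of Bcl6 was lost without p80HT replicate 2, WT replicate 2 or WT replicate 3. Bach2, a repressor that holds back plasma cell differentiation, had a log2 fold change of -1.26 and did not pass with all arrays. It passed without any 1 of the p80HT mice, at -0.78 without p80HT replicate 3. Pax5 (-0.75), Ebf1 (-1.21) and Irf4 (-0.78) did not pass, and without p80HT replicate 3 they were at -0.36, -0.46 and -0.21. The study named Prdm1 and Bcl6 from these arrays.

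As with most genes measured, most known targets of Ikaros proteins in mouse lymphocytes did not pass. Of 20 measured 1 fell, none rose and 19 did not pass, where 1.22% of all genes rose and 0.968% fell. Their median log2 fold change was -0.22. The 1 that fell was Hes1, a Notch-induced repressor gene that Ikaros silences in T cells. Hes1 was at 9.00, 8.89 and 8.21 in p80HT mice, against 10.39, 10.84 and 10.61 in WT mice, a log2 fold change of -1.92 (limma adjusted p = 0.0681) that was -1.67 without p80HT replicate 3. The study named it from these arrays. The T cell genes on the list, Il7r (1.62), Cd8a (1.41) and Cd4 (0.77), were higher in every p80HT mouse than in any WT mouse and did not pass. Il7r and Cd8a rose without p80HT replicate 3, at 0.87 and 0.62. With Notch3 (0.20) the T cell genes made 4 of the 20 higher without overlap, where 8.86% of all genes were. Foxo1 (-0.77), Irf4 (-0.78), Blnk (-0.56) and Syk (-0.54) were lower in every p80HT mouse than in any WT mouse and did not pass either. With Hes1 these made 5 of the 20 lower without overlap, where 11.9% of all genes were. The cytokine gene Il2 was at 5.52 to 6.35 in p80HT and 5.93 to 6.27 in WT, near background. Igll1 (-0.36), Rag1 (-0.68) and Myc (-0.58) had groups that overlapped.

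Genes whose profile lay closest to a member were ranked by the root mean square difference of log2 signal over the 6 arrays, after taking off each gene's own mean, among 9968 genes brighter than the median. For Ikzf2 they were Ccnd2, the cyclin D2 gene (0.12), Mpeg1, a pore-forming protein of macrophages (0.12), Tnfrsf4 (0.14), Itm2c (0.14) and Ryk, a Wnt receptor (0.15). Ccnd2 was at 11.17, 11.40 and 12.10 in p80HT mice, against 10.22, 10.08 and 10.26 in WT mice. For Ikzf3 they were Gm10840, Fnip1, a partner of folliculin, Syk, the kinase of the B cell receptor, Mef2d and Trmt61b, at 0.03 each. Syk was at 12.10, 11.95 and 11.02 in p80HT mice, against 12.16, 12.29 and 12.24 in WT mice. For Ikzf1 they were Hps4 (0.03), Rad54l2 (0.03), 1500009C09Rik (0.04), Ap1g2 (0.04) and Ahctf1 (0.04). These genes were picked for their likeness over the same arrays, which fixes where they are high and low.

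**Figure D5:**
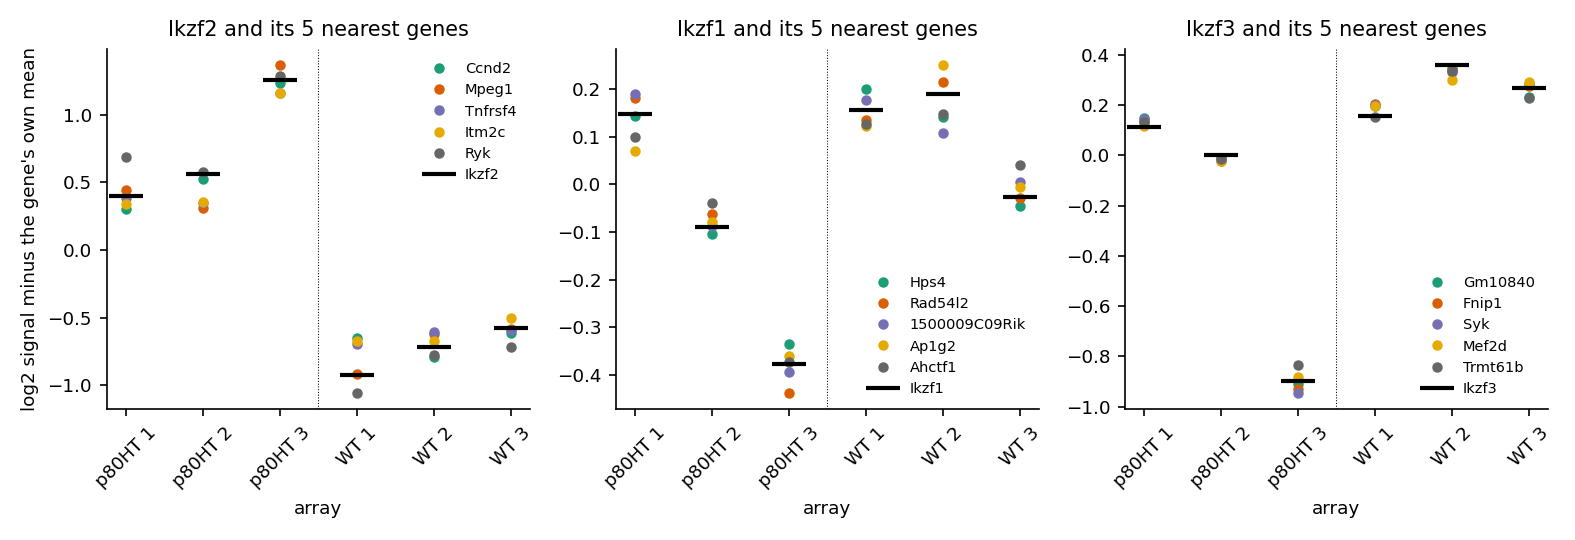
Log2 signal minus each gene's own mean (vertical axis, a scale of its own in each panel) on the 6 arrays for Ikzf2, Ikzf1 and Ikzf3 (black bars) and the 5 genes nearest to each (coloured points). By the way they were picked, the genes follow the member of their panel: the Ikzf2 group is high on all p80HT arrays and highest on p80HT replicate 3, where the Ikzf3 and Ikzf1 groups are lowest.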

How the data were processed

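The authors deposited 1 log2 signal per probeset and array, after RMA in the Partek Genomics Suite (versions, annotation release and settings are not given in the sources used here). RMA normalizes arrays to each other, so a shift shared by most genes would not show. Array medians were 7.68 to 7.81. Arrays give no read depth, and the number of mice limits the precision. Of 28853 probesets 21789 carry 1 gene symbol, 1621 several and 5443 none in the platform table. For each of 19938 genes the single-symbol probeset brightest on average was used. Some genes of the lists are not reported here.

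p80HT was compared with WT by a 2-sided moderated test without a block (limma 3.58.1, R 4.3.3), with Benjamini-Hochberg adjustment over all genes. An exact permutation test of 3 against 3 mice cannot give a p below 0.1. Named list members are those past the threshold or, with none, the 2 with the smallest p. Others were named after their values were seen. The members and lists were chosen with earlier results of these data known. Alternatives were leaving out each array, the replicate number as a block, other normalizations, filters, probeset means and variance models, and a corrected threshold. On simulated data with 19938 genes, 3 against 3 arrays, the threshold recovered 79 of 100 genes changed 2-fold and 98 of 100 changed 4-fold, with 105 false calls. Figures were drawn with matplotlib 3.10.9 in Python 3.11.15.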

Additional observations from a re-analysis of the deposited data

How the results depend on the processing

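Ikzf2 passed the study's threshold in every alternative run except the corrected one (adjusted p under 0.05). Its log2 fold change was 1.22 to 1.65 without any 1 array and 1.41 to 1.48 otherwise, and no member reversed. Ikzf2 was known beforehand to pass on these same arrays, so these runs are a description and no independent support. The excess of Ikzf2 over Ikzf1 was 1.30 to 1.99 and over Ikzf3 1.42 to 2.36 without any 1 array. Family members past the threshold numbered 1 to 2 without any 1 array, the added gene being Ikzf4, and 0 at an adjusted p under 0.05. Over all genes, 436 passed, 206 to 691 without any 1 array (691 without p80HT replicate 3, and 206 and 220 without WT replicates 2 and 3), 196 with the methods' analysis of variance and 11 at an adjusted p under 0.05. After median centring of the arrays, 38.2% of the calls were higher, against 55.7% with the deposited values. Only 9 of the 12 regulatory T cell genes were above the 50th percentile of mean signal, and 5 of these 9 passed in that run. Regulatory T cell genes past the threshold otherwise numbered 8 of 12, or 7 to 10 without any 1 array and 3 with the analysis of variance. T cell genes numbered 6, or 3 to 13 without any 1 array (3 without WT replicate 1, 11 without p80HT replicate 2 and 13 without p80HT replicate 3), and 3 with the analysis of variance. B lineage transcription factors numbered 2, or 1 to 5 without any 1 array (5 without p80HT replicate 1, 1 without WT replicate 2 or 3), 5 after median centring and 4 with an intensity trend. Targets of Ikaros proteins numbered 1, or 1 to 3 without any 1 array (3 without p80HT replicate 3). The cause of these shifts was not tested.

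The labels do not say that equal replicate numbers pair mice, and deviations of same-numbered mice from their group means correlated at 0.07, -0.24 and 0.07. With the replicate number as a block, 11 T cell genes, 4 B lineage transcription factors and 2 targets of Ikaros proteins passed, and 567 of all genes. No other count changed by over 1.5 times under the block, and the same family member passed. WT signals of Ikzf2 and Ikzf4 lie close to background, which limits how well a fold can be measured there.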
